A study of Mus musculus with 8 samples.

Results

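Myh9 encodes the heavy chain of nonmuscle myosin IIA, the motor that pulls on actin filaments to drive cell migration, cell division and the tension of cell adhesions. In epithelial and carcinoma cells it works at the cell cortex, at the rear of moving cells and in stress fibers, with its light chains and the kinases that phosphorylate them. DNA methylation at cytosines followed by guanine is usually high within the body of an active gene and low at promoters and other regulatory elements. The positions described here are the 764 cytosines, called sites, that the deposited table lists on chromosome 15 from 77595970 to 77668748, of 136069 sites in all (0.561%). They were taken by position alone, but the interval was picked because earlier results of these data showed changes of opposite direction along it. Its differences between groups are therefore given as a description. Where a site or cluster is said to pass or to be called, this marks an adjusted p under 0.05 in a limma fit over the whole table, and it is no independent test of a locus chosen on the same contrasts.

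All samples came from 4T1, a mammary carcinoma line from the BALB/c strain that metastasizes to lung after transplantation. The 2 primary mammary tumors and 3 of the lung metastases carry the mark MFP in their labels, the other 3 lung metastases the mark TVI, and neither mark is spelled out. All 8 share cell line and strain, and the labels give no further agent, genotype or animal age. No primary tumor was marked TVI, so that organ and mark cannot be told apart when TVI metastases are compared with the tumors. Each sample is bulk DNA: a change in methylation within cells and a change in the share of cells of another kind, such as host cells of the lung, cannot be told apart, and methylation fractions carry no expression markers with which to check the labelled cell type.

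The placement on Myh9 was checked first, because the submitters' processing notes name mm10 and the positions are not those of mm10. On chromosome 7, 557 of the 3166 positions exceeded the end of the last gene listed for mm10 (GRCm38.p6). Among sites of chromosome 15 that fell within the RefSeq promoter sequences of that build, 3 of 51 (5.88%) lay on a CG as deposited. After a shift of 169569 bases, 119 of 164 did, and the best shift more than 10 bases away gave 22 of 155 among 800001 shifts tried. Within 2 Mb to the right of the locus the share was 77 of 79 (97.5%), the nearest such site being 965 kb away. No promoter sequence could be matched in the locus itself or to its left. With that shift held constant, all 764 sites lay inside Myh9 (NCBI gene 17886, on the minus strand) and over no other listed gene. Distances below are counted from the gene's start under this shift, and positions are as deposited, which the choice of the interval took as mm9. No reference of that build was used here, so exons and introns are not assigned.

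The sites covered the gene from 3.86 kb to 76.6 kb downstream of its start and did not include the promoter. Their median spacing was 36 bp, and the widest gap, 12011 bp, ran from 77650722 to 77662733. The nearest sites outside the locus were 642 kb and 1162 kb away. Sites at most 500 bp apart were joined into 13 clusters of 11 to 176 sites, which held all 764. The mean over the locus was 75.5% ± 0.699 (SD, n = 2) in tumors. It was 77.4% ± 0.206 (SD, n = 3) in MFP metastases, and TVI metastases had 76.1% ± 0.398 (SD, n = 3). The same means over all sites of the table were 66.7%, 67.4% and 68.6%. Averages over the whole gene thus lay close together, while single stretches differed by far more. The table holds no read counts, so the depth behind each fraction is unknown.

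Methylation ran unevenly along the gene. At 467 sites (61.1%, against 55.4% of the whole table) all 8 samples had at least 80% methylation, and in the plot of methylation along the gene the windows beyond about 45 kb lie mostly near the top of the scale. Nearer the start, methylation dropped repeatedly to a few percent. There were 10 low stretches, defined as 3 or more neighboring sites with a mean under 20% over the 8 samples, and 9 of them began within 44.0 kb of the start. They held 86 sites, whose mean was 3.77% ± 0.197 (SD, n = 2) in tumors. It was 4.60% ± 0.224 (SD, n = 3) in MFP metastases, and TVI metastases had 5.41% ± 0.213 (SD, n = 3). The pooled difference between the metastasis groups rested largely on a few sites, such as 77629793 (34.9% in TVI against 11.7% in MFP metastases). Of the 86 sites, 8 were called higher and 4 lower in TVI than in MFP metastases. Over the whole table, 13.3% and 2.93% of sites under 20% in tumors were so called. The largest stretches were 18 sites from 77648962 to 77649607, 16 sites from 77629008 to 77630062 and 11 sites from 77637132 to 77637769. In the last of these, TVI metastases stood apart, at 6.94%, 7.15% and 5.78%, against 2.27% to 3.80% in the other 5 samples. Sites 77637371 (17.8% in TVI against 3.29% in MFP metastases) and 77637134 (12.7% against 4.45%) carried much of that gap. The order of the pooled means did not hold in every stretch. From 77648962, TVI metastases had 4.33% and MFP metastases 5.25%. TVI metastases were also below MFP metastases from 77628413, 77650568 and 77663025, and above them in the rest. A further 9 sites with a mean under 20% lay outside these stretches. For 1 of them both neighbors had means of at least 80%: 77633349 (39.3 kb) had at most 12.3% in tumors, 19.0%, 6.67% and 14.0% in MFP metastases and 31.5%, 32.7% and 27.6% in TVI metastases, between sites with means of 93.3% and 82.8%. The table held 595 sites of that kind.

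**Figure D1:**
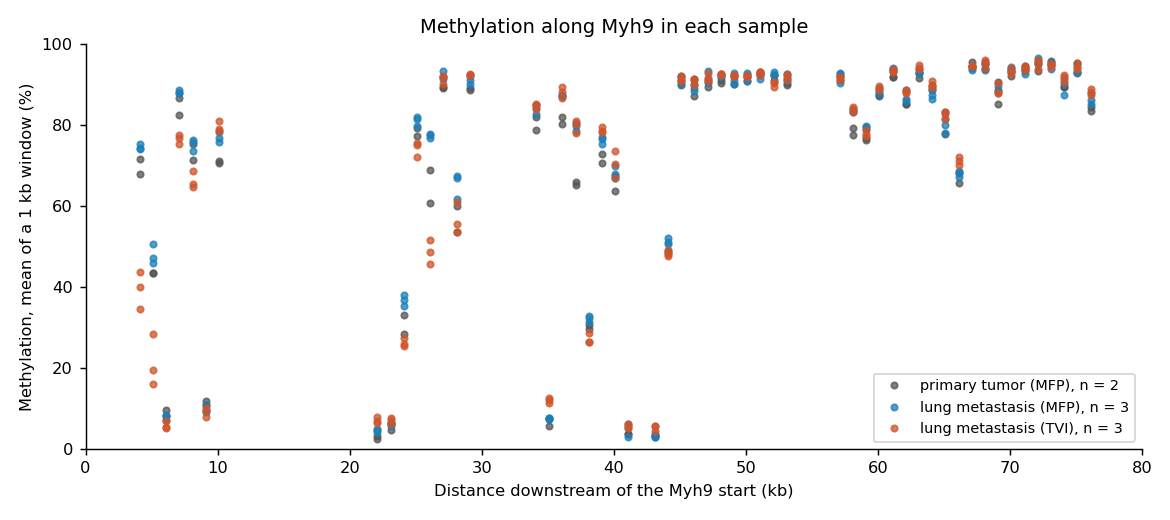
Mean methylation (%) of each 1 kb window with at least 5 sites, plotted against distance downstream of the Myh9 start (kb), with 1 point per sample. TVI metastases lie below the other samples at about 4 to 5 kb and 26 kb, while the primary tumors lie below both metastasis groups at about 37 kb.

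The largest difference lay in the cluster nearest the gene start, from 77667560 to 77668748 (16 sites, 3.86 to 5.05 kb). Its methylation was 59.8% and 57.8% in the tumors, 61.6%, 65.5% and 63.3% in MFP metastases and 36.7%, 24.7% and 29.3% in TVI metastases. Every TVI metastasis was below all 5 other samples, and the TVI samples also differed most among themselves. The difference of TVI from MFP metastases was -33.2 points (SE 2.73) and that from the tumors -28.6 points (SE 3.05). MFP metastases differed from the tumors by 4.66 points (SE 3.05), which did not pass. By size, the first of these ranked 3 among the falls of all 3083 clusters in the table. Of its 16 sites, 14 were lower in TVI than in MFP metastases by the limma fit over all sites of the table (adjusted p under 0.05), and 0 were higher.

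Single sites in this cluster moved further than its mean. Site 77668641 had 87.5% and 81.2% in tumors, 78.3%, 79.5% and 84.5% in MFP metastases and 29.9%, 18.4% and 18.5% in TVI metastases, a difference of -58.5 points between the metastasis groups. The neighboring site 77668646 had 79.6% ± 4.04 (SD, n = 2), 88.2% ± 3.32 (SD, n = 3) and 40.7% ± 10.4 (SD, n = 3) in the same order of groups. Both sites were highly methylated in tumors and MFP metastases and lower in every TVI metastasis, without overlap of the samples. Site 77667886 was at 77.1%, 74.2% and 25.2%, with a wide TVI range of 7.04% to 41.4%. Site 77667591 was at 74.8%, 84.7% and 38.8%.

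The next stretch away from the start held 37 sites from 77663921 to 77667045 (5.56 to 8.69 kb). It was lower in TVI metastases as well, at 55.8%, 53.5% and 54.2%, against 61.6%, 62.6% and 62.1% in MFP metastases and 61.6% and 59.1% in tumors. The samples of the TVI group again lay below all others, while MFP metastases and tumors nearly touched, at 61.63% and 61.62% for the closest pair. The difference between metastasis groups was -7.58 points (SE 0.840) and that of TVI metastases from the tumors -5.84 points (SE 0.939), and 14 of its sites were lower and 3 higher in TVI metastases. Within it lay a low stretch of 6 sites from 77666462 to 77667045, with a mean of 2.29% for the tumors. The mean was 3.17% for MFP and 5.39% for TVI metastases. Its end site, 77667045, was called higher in TVI metastases (23.8% against 12.6% in MFP metastases) and carried much of that gap.

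A second stretch of loss lay farther into the gene, where the metastasis groups moved to opposite sides of the tumors. The cluster from 77646086 to 77648323 (26 sites, 24.3 to 26.5 kb) had 72.3% and 66.9% in tumors, 77.4%, 77.2% and 78.4% in MFP metastases and 60.7%, 55.9% and 58.1% in TVI metastases. All MFP metastases were above and all TVI metastases below both tumors. The difference of TVI from MFP metastases was -19.4 points (SE 1.57), with 17 sites lower and 0 higher. MFP metastases were 8.05 points (SE 1.75) above the tumors, and TVI metastases differed from the tumors by -11.4 points (SE 1.75).

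The excess in MFP metastases rested less firmly on the samples than the deficit in TVI metastases. It passed the threshold with all 8 samples, and did not without primary tumor replicate 2 (5.39 points), without MFP metastasis replicate 1, 2 or 3 (8.19, 8.26 and 7.70 points) or without TVI metastasis replicate 3 (8.05 points). It did not pass after quantile normalization (6.28 points), with the replicate number as a block (7.90 points) or in a fit of only the 2 groups (8.05 points) either. The TVI deficit against either group passed in each of these. The change was largest over the 13 sites in the window from 77646000 to 77646999, with means of 64.8% ± 5.79 (SD, n = 2), 77.4% ± 0.526 (SD, n = 3) and 48.6% ± 2.99 (SD, n = 3) in tumors, MFP and TVI metastases. At site 77646516 in this window the tumors themselves differed widely, at 76.7% and 51.3%. MFP metastases had 76.2%, 87.7% and 80.3% there and TVI metastases 26.2%, 29.2% and 39.7%.

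Only 1 to 2 kb nearer the start, sites beside the low stretch from 77648962 to 77649607 moved the other way. Site 77649718 had 27.8% and 30.5% in tumors, 22.5%, 31.6% and 32.1% in MFP metastases and 47.5%, 64.2% and 52.3% in TVI metastases. Site 77650178 had 14.1% and 19.8%, then 15.96%, 15.1% and 14.5%, and 35.8%, 39.6% and 44.8%. These were the largest rises of TVI over MFP metastases in the locus, at 25.9 and 24.9 points, and at both sites the TVI samples did not overlap the others. The switch of direction was close: site 77649501 was lower in TVI than in MFP metastases (11.2% against 25.3%) and site 77649607, 106 bp away, was higher (16.9% against 7.26%). The cluster holding these 4 sites, 29 sites from 77648881 to 77650722, differed by 0.97 points between the metastasis groups and was not called.

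**Figure D2:**
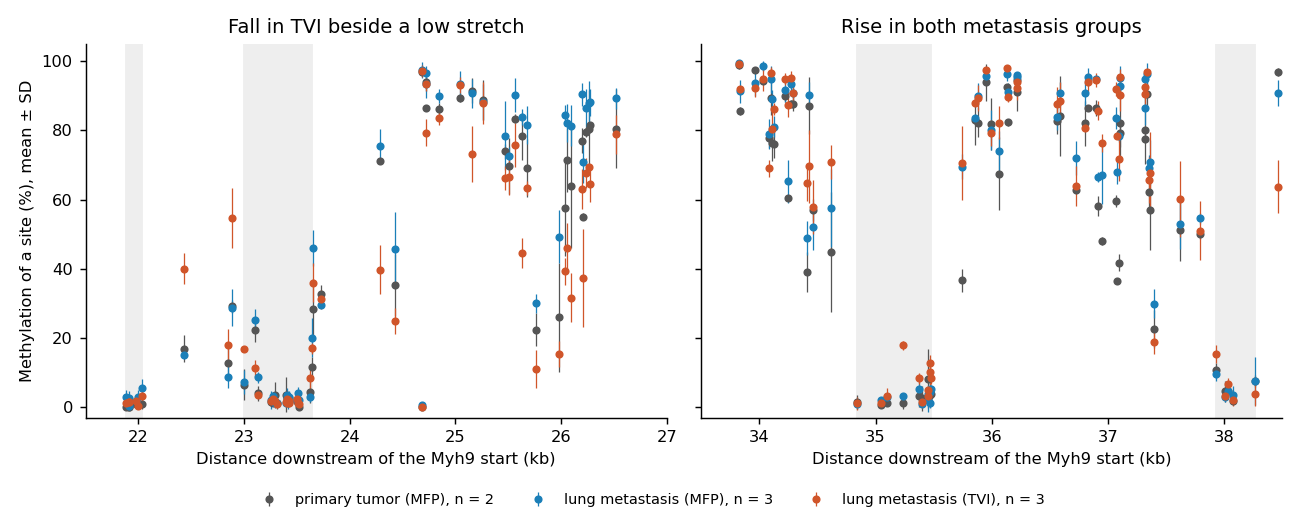
Methylation (%) of single sites, mean ± SD by group, against distance downstream of the Myh9 start (kb), with low stretches shaded. On the left, TVI metastases lie below the other groups at about 26 kb and farthest above them at 2 sites between about 22 and 23 kb. On the right, the primary tumors lie below both metastasis groups at about 37 kb.

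Another pattern, a rise shared by both metastasis groups, was seen in the cluster from 77631380 to 77638777 (90 sites, 33.8 to 41.2 kb). Its methylation was 53.5% and 53.8% in tumors, 58.7%, 59.2% and 58.8% in MFP metastases and 60.4%, 59.5% and 59.4% in TVI metastases. All 6 metastases exceeded both tumors by several times the spread within any group. The rise came to 5.21 points (SE 0.509) for MFP metastases and 6.09 points (SE 0.509) for TVI metastases, and after quantile normalization, with both still past the threshold, to 3.87 and 2.91 points. Both comparisons share the 2 tumors, so the values stand side by side only as a description. The metastasis groups differed from each other by 0.87 points (SE 0.455) in this cluster, which did not pass.

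The rise was largest in the window from 77635000 to 77635999 (17 sites), with 65.04% and 65.9% in tumors, 79.8%, 80.4% and 78.4% in MFP metastases and 81.0%, 78.0% and 80.2% in TVI metastases. It held the 3 sites of the locus that passed between MFP metastases and tumors, which are direct neighbors. Site 77635514 had 41.8% ± 2.54 (SD, n = 2) in tumors, 79.5%, 78.7% and 76.6% in MFP metastases and 79.3%, 68.2% and 68.0% in TVI metastases. Site 77635532 had 37.2% and 36.0%, then 64.8%, 67.6% and 71.6%, and 77.8%, 78.4% and 78.9%. Site 77635540 had 60.8% and 58.3%, then 82.4%, 87.2% and 81.1%, and 89.8%, 93.9% and 92.0%. At each of the 3 sites all metastases were above both tumors, with no overlap. These calls were thin all the same. Without any 1 metastasis at most 1 of them passed, namely site 77635514 without TVI metastasis replicate 1. Those fits called 0 to 18 sites of the whole table between MFP metastases and tumors, against 63 with all samples. The loss of calls is thus not particular to these sites. With any 1 sample left out, the difference at site 77635514 stayed between 34.7 and 38.3 points. A site outside the naming rule, picked after its values were seen, behaved alike without passing between MFP metastases and tumors: 77636860 had 36.6% ± 3.19 (SD, n = 2), 69.5% ± 3.64 (SD, n = 3) and 70.6% ± 10.8 (SD, n = 3).

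The next cluster toward the start, and 1 beyond the long gap, shared the rise in a smaller form. The 33 sites from 77643298 to 77645442 had 84.8% and 83.5% in tumors, 86.5%, 88.0% and 88.4% in MFP metastases and 86.7%, 86.6% and 86.2% in TVI metastases. The 11 sites from 77662733 to 77663241 had 47.6% and 47.1%, then 52.1%, 52.0% and 50.4%, and 53.7%, 52.2% and 51.6%. In both clusters every metastasis exceeded both tumors, and each metastasis group passed against the tumors. For MFP metastases (3.53 points), however, the first lost its call without primary tumor replicate 2 (2.87 points), MFP metastasis replicate 2 or 3 (3.36 and 3.16 points) or TVI metastasis replicate 3 (3.53 points), with the replicate number as a block (3.42 points) and in a fit of only the 2 groups (3.53 points). For TVI metastases (2.40 points) it was lost without primary tumor replicate 2 (1.73 points) and with the block (2.28 points). In the second, the call for MFP metastases (4.16 points) was lost without primary tumor replicate 1 or 2 (4.44 and 3.87 points), MFP metastasis replicate 1 or 2 (3.84 and 3.91 points) or TVI metastasis replicate 2 or 3 (4.16 points in each). After quantile normalization neither cluster passed for either metastasis group. The first then stood at 2.44 points for MFP metastases and 0.08 points for TVI metastases, the second at 2.97 and 2.13 points. Every metastasis also exceeded both tumors in the clusters from 77605357, 77613815, 77618817 and 77648881. MFP metastases were above the tumors there by 0.76, 2.18, 0.83 and 1.43 points, none of them called. TVI metastases were above them by 1.94, 2.22, 0.64 and 2.40 points.

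**Figure D3:**
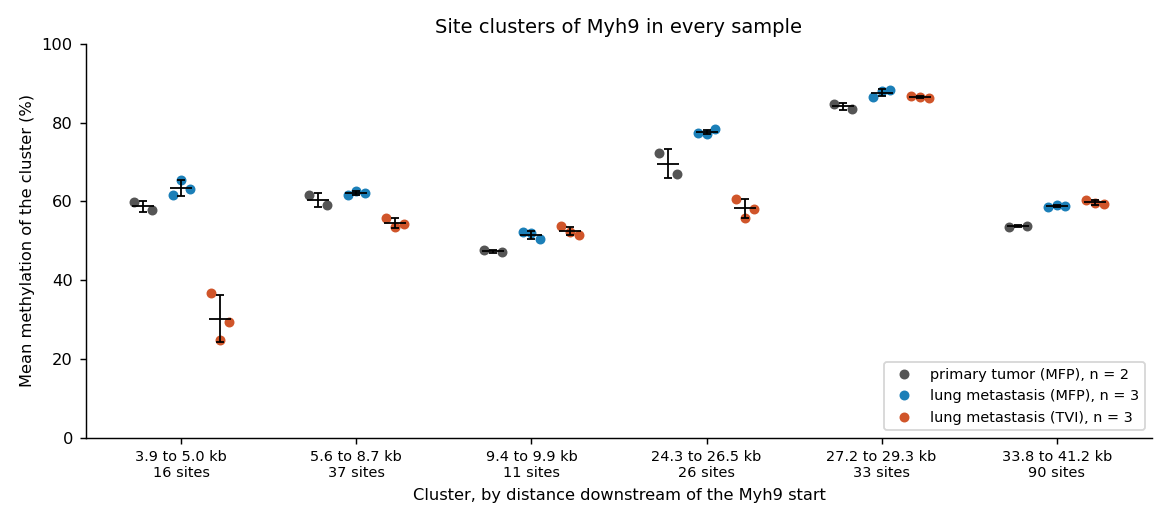
Mean methylation (%) of the 6 clusters with a TVI deficit beyond 5 points against MFP metastases or an MFP excess beyond 3 points over tumors, by distance downstream of the Myh9 start. Points are samples and bars are group means ± SD (n = 2, 3 and 3). TVI metastases stand lowest at 3.9 to 5.0 kb, 5.6 to 8.7 kb and 24.3 to 26.5 kb, and the tumors stand lowest at 33.8 to 41.2 kb.

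The 6 clusters farthest from the start, from 77595970 to 77630367 (522 sites), differed less between groups in their means. Over these sites the mean was 85.4% and 84.6% in tumors, 85.7%, 85.8% and 85.98% in MFP metastases and 86.4%, 86.2% and 86.1% in TVI metastases. The cluster means differed by -1.53 to 1.93 points between the metastasis groups. Of these, the 24 sites from 77601417 to 77603077 were lower in TVI metastases (92.2% ± 0.175 against 93.7% ± 0.0767). That difference came from 1 site, 77603077: without it, the other 23 sites differed by 0.0475 points. The 139 sites from 77605357 to 77613298 were higher in TVI metastases (86.5% ± 0.123 against 85.3% ± 0.484). This cluster lost its call without MFP metastasis replicate 1 or 3 (1.08 and 0.999 points) or TVI metastasis replicate 2 (1.11 points). After quantile normalization its difference was 0.15 points. Against the tumors, TVI metastases passed in that cluster (1.94 points), in the 48 sites from 77613815 to 77615986 (2.22 points) and in the 29 sites from 77648881 to 77650722 (2.40 points, or 1.57 points without site 77649718). None of the 3 passed after quantile normalization (0.10, -0.06 and 0.66 points), and the last 2 did not without primary tumor replicate 2 (1.43 and 1.61 points).

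Single sites stood out more. Before 77646086, 26 sites were lower and 25 higher in TVI than in MFP metastases, scattered along the gene. Chosen after its values were seen, the same site 77603077 had 85.3% and 67.6% in tumors, 92.2%, 86.0% and 89.4% in MFP metastases and 57.8%, 42.3% and 54.0% in TVI metastases, at the end of a cluster of 24 sites of which 2 were lower and 1 was higher. Changes of direction along the called sites numbered 37 over the locus, and the closest pair lay 16 bp apart: 77638178 was at 90.3% in MFP and 69.6% in TVI metastases, and 77638194 at 48.9% and 64.8%. As a description across sites, which share libraries and reads, the TVI minus MFP differences of neighbors at most 50 bp apart correlated at 0.627 (455 pairs), and those of neighbors 200 to 1000 bp apart at 0.315 (55 pairs). The named rises there were at partly or weakly methylated sites. Site 77629793, in a low stretch, had 7.77% and 10.2% in tumors, 10.2%, 10.3% and 14.7% in MFP metastases and 31.7%, 37.6% and 35.4% in TVI metastases. Site 77638356 rose from 65.4% ± 6.21 (SD, n = 3) in MFP to 87.5% ± 3.69 (SD, n = 3) in TVI metastases, and site 77596848, near the far end, from 37.2% ± 4.67 to 56.3% ± 1.13. The call at the last of these was lost after quantile normalization (13.8 points).

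The contrast between the parts of the gene appears in the counts. Of the 119 sites from 77646086 to the last site, 48 (40.3%) were lower and 8 (6.72%) higher in TVI than in MFP metastases. Of the 645 others, 26 (4.03%) were lower and 25 (3.88%) higher. The dividing position was set after the differences were seen, so the split is only a way to describe them. Among the 40 called falls of more than 20 points, 30 lay in the part nearer the start, while 4 called rises were of that size. That part was drawn by falls in TVI against MFP metastases, so the 30 follows in part from how it was drawn. No share over the whole table was computed at that size, so these counts cannot show whether the locus is unusual. The mean of the 119 sites was 49.2% and 46.6% in tumors, 51.0%, 52.0% and 51.6% in MFP metastases and 42.6%, 39.3% and 40.6% in TVI metastases.

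Over the whole locus, limma called 33 sites higher (4.32%) and 74 lower (9.69%) in TVI than in MFP metastases, where 10.4% and 6.53% of all 135914 sites tested were called. All 764 locus sites entered the test. Quantile normalization gave 15 higher and 87 lower. The higher sites numbered 19 without TVI metastasis replicate 2 and 20 without replicate 3. TVI metastases had 60 sites higher and 43 lower than the tumors, with 11.4% and 5.24% called in the whole table, and 29 and 65 after quantile normalization. The higher sites numbered 36 without TVI metastasis replicate 1 and 39 without replicate 2, and the lower sites 24 without primary tumor replicate 1. MFP metastases had 3 sites higher and 0 lower, with 0.0427% and 0.00368% called in the whole table. At an unadjusted p under 0.05, limma gave 120 locus sites in that comparison, 18 of them lower. On the logit scale it called 0 in the locus and 0 in the whole table. With both metastasis groups averaged, 35 sites exceeded the tumors and 8 were lower (5.12% and 1.62% called in the whole table), and 14 and 16 after quantile normalization. With the 6 metastases fitted as 1 group, limma called 0 locus sites in either direction (87 at an unadjusted p under 0.05). That fit also called 0 sites in the whole table, so its 0 is not particular to the locus. With the metastasis groups averaged, the higher sites numbered 19 on the logit scale and 20 with the replicate number as a block, and the lower sites 5 with the block. Without a single sample these counts fell furthest for primary tumor replicate 1 (10 higher, 2 lower) and replicate 2 (11 and 2). The higher sites numbered 23 without MFP metastasis replicate 2, 22 without TVI metastasis replicate 2 and 17 without TVI metastasis replicate 3, and the lower sites 4 without any 1 MFP metastasis. Since the locus was chosen on these contrasts, nothing further is read from its shares.

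**Figure D4:**
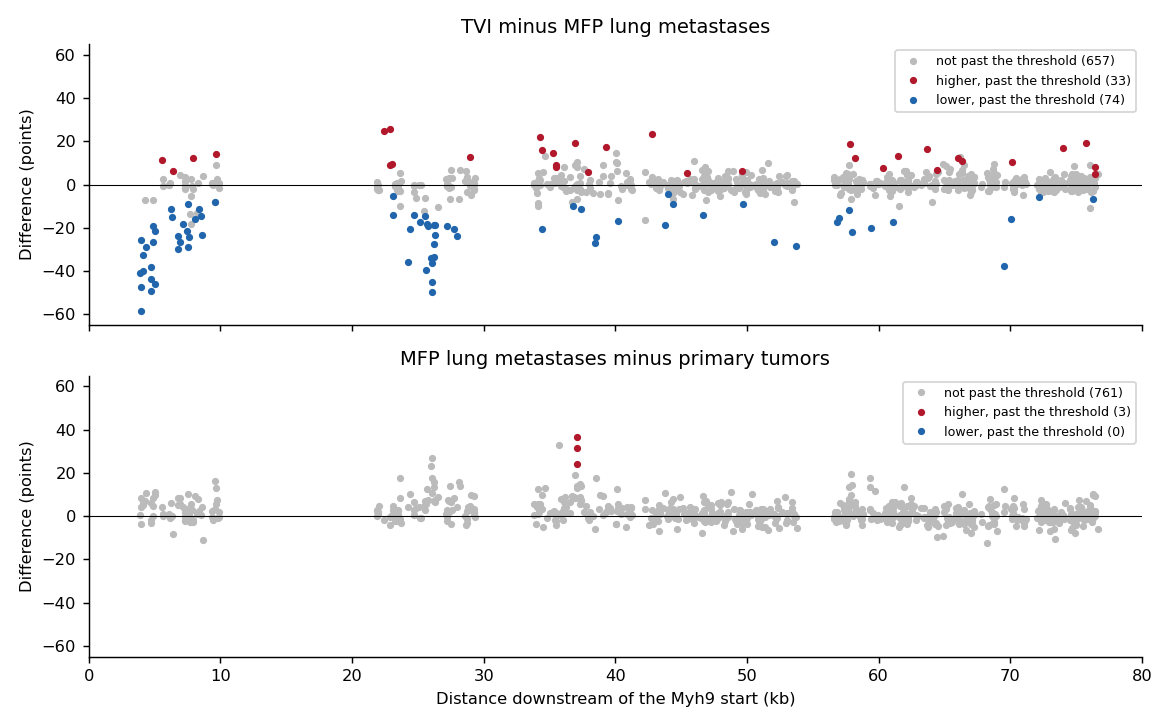
Difference in methylation (percentage points) at each of the 764 sites against distance downstream of the Myh9 start (kb), for TVI minus MFP metastases (top) and MFP metastases minus tumors (bottom); colors mark sites past the limma threshold (adjusted p under 0.05). Many of the 74 lower sites in the top panel lie at about 4 to 9 kb and 24 to 26.5 kb, and 26 are scattered farther from the start. The 3 higher sites in the bottom panel lie together at about 37 kb.

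Among the 13 clusters, 1 was higher and 4 were lower in TVI than in MFP metastases (42% and 13.8% of 3083 clusters called in the whole table). TVI metastases had 6 clusters higher and 3 lower than the tumors (49.6% and 9.67% in the whole table). MFP metastases had 4 higher and 0 lower (4.93% and 0.324% in the whole table). Averaged, the metastases had 6 higher and 1 lower (41.6% and 4.77% in the whole table). All MFP metastases were above and all TVI metastases below both tumors in 4 of the 13 clusters, and the reverse held in 0. In the whole table these orders occurred in 3.92% and 2.43% of clusters. With the site of the largest TVI minus MFP difference left out of each cluster, the first order remained in those from 77646086 and 77667560. It was lost in those from 77601417 and 77663921. All 3 clusters lower than the tumors in TVI metastases were the ones described above, at 3.86 to 5.05 kb, 5.56 to 8.69 kb and 24.3 to 26.5 kb.

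Within the locus, sites of intermediate methylation in tumors were called more often than those near either end of the scale. Of the 134 locus sites with 20% to 80% methylation in tumors, 41 (30.6%) were lower and 14 (10.4%) higher in TVI than in MFP metastases. In the whole table the corresponding shares were 16.3% and 36.4% of 22164 sites. Their median difference was -2.57 points in the locus and 6.65 points in the whole table. For sites at 80% or more in tumors, 5.41% of 536 were lower and 1.31% higher, against 5.27% and 2.31% in the whole table. At sites under 20%, 12.8% of 94 were higher and 4.26% lower, against 13.3% and 2.93%. These shares are a description, and no test is given for them.

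Sites on which the metastasis groups parted from the tumors in opposite directions were also counted. At 26 sites all MFP metastases were above and all TVI metastases below both tumors (1.33% of sites in the whole table), and 20 of these lay in the part from 77646086 on. Because that part was drawn by falls in TVI against MFP metastases, the count of 20 follows in part from how it was drawn. The reverse order, with MFP metastases below and TVI metastases above both tumors, held at 4 locus sites (1.35% of sites in the whole table). All 6 metastases were above both tumors at 74 locus sites and below both at 11. In the whole table this held for 7.73% and 2.67% of sites.

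Elsewhere in the table, the clusters closest in level to the one nearest the gene start were sought over 2896 clusters of at least 5 sites, by the root-mean-square difference over the 8 samples. They lay on chromosome 12 from 56591181 to 56592653 (5.72 points; tumors 58.7%, MFP metastases 60.2%, TVI metastases 21.9%), on chromosome 17 from 46689226 to 46690691 (6.25 points) and on chromosome 4 from 140794293 to 140796098 (6.80 points). For the cluster with the largest TVI rise, from 77603653 to 77604807 (91.1% in MFP and 93.0% in TVI metastases, a difference of 1.93 points that did not pass), the closest lay on chromosomes 19, 4 and 5 at 0.95 to 1.005 points.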

How the data were processed

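Bisulfite sequencing of 8 samples was deposited as 1 table of beta values, per the file headers; a beta value is a fraction, the methylated share at a position, and these ran from 0 to 1. Per the submitters' processing notes, Trimmomatic, Bismark and mm10 were named. For versions, settings, coverage and the choice of positions, the sources used here give nothing. No interval or detection floor was computed, as depth is unknown. No value column lacked a label, and no pair of samples held identical values.

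Fractions, as percent, were fitted at 135914 varying sites with limma 3.58.1 (R 4.3.3): 1 mean per group over all 8 samples, variance trend, Benjamini-Hochberg adjustment over all sites, threshold 0.05. Clusters (gap at most 500 bp, at least 3 sites, 3083 in all) were fitted alike. Separate animals are not named in the labels, so calls and SDs rest on the scatter among these samples, in part perhaps technical. Recovery of known changes was simulated for TVI against MFP metastases only, at intermediate methylation. Of site changes of 10, 20, 30 and 40 points, 0%, 6%, 60% and 74% were called. For cluster changes of 1, 2, 4 and 8 points the shares were 0%, 28%, 66% and 96%. The simulations gave 73 site and 98 cluster calls, far fewer than the data, so these rates need not carry over. A site or cluster that did not pass may still differ.

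Named sites were the 5 largest called rises and falls for TVI against MFP metastases and for MFP metastases against tumors, plus the sites at a change of direction along the locus, of which a few close pairs are given. A planned list of actomyosin genes needs a reference of the files' build and was not used here. Alternatives were quantile normalization, a logit scale, no variance trend, a replicate block, a filter on range, only the groups compared, other gaps, each sample left out and, chosen after seeing the data, all metastases as 1 group and each cluster without its most different site. The members and lists were chosen with earlier results of these data known.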

Additional observations from a re-analysis of the deposited data

Results flagged for a closer look

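In 4 clusters of the locus the values of all MFP metastases lay above and those of all TVI metastases below both tumors, which is why they are listed here. The difference between these effects was not tested, since the locus was chosen on it, and most of the MFP values did not pass against the tumors. From 77646086, MFP metastases were 8.05 points (SE 1.75) above the tumors, a call lost in 8 of 13 alternatives, and TVI metastases differed by -11.4 points (SE 1.75). From 77667560 the differences were 4.66 points (SE 3.05, not called) and -28.6 points (SE 3.05, called). From 77663921 they were 1.74 points (SE 0.939, not called) and -5.84 points (SE 0.939, called), and the samples no longer kept this order without site 77665798. From 77601417 they were 1.06 and -0.47 points (SE 0.291 for each), neither of them called. Without the single site 77603077 the latter were 0.55 and 0.60 points, so that the opposite signs there rest on that site. Site 77668646 stood at 8.53 points (SE 5.81, not called) and -38.9 points (SE 5.81, called), and site 77667591 at 9.91 points (SE 6.15, not called) and -36.0 points (SE 6.15, called). Across the whole table this order of the samples occurred in 3.92% of clusters and 1.33% of sites.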

How the results depend on the processing

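The TVI deficits from 77646086, 77663921 and 77667560 kept their call against both other groups in all 13 alternatives with the same clusters. The difference of TVI from MFP metastases from 77667560 ran from -36.5 to -30.5 points with 1 sample left out. A gap of 1000 bp merges that cluster with its neighbors and gave -12.5 points. The same gap reversed clusters it merged: from 77601417, TVI minus MFP was 0.71 points, and TVI minus tumor was -1.68 points from 77643298 and from 77648881 and -9.63 points from 77662733. Leaving out the site of the largest TVI minus MFP difference in each cluster, added after the data were seen, turned TVI minus MFP from 77601417 to 0.0475 points. Quantile normalization gave -0.0573 points for TVI minus tumor from 77613815. The logit scale was not run on clusters.

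Quantile normalization gave 15 higher sites in TVI than in MFP metastases, and 29 higher and 65 lower in TVI metastases than in tumors. For MFP metastases against tumors, limma called 0 locus sites higher after quantile normalization and on the logit scale. It also called 0 with the replicate block and with only the 2 groups compared. At an unadjusted p under 0.05 these limma fits gave 88 to 123 locus sites. Among the 666 locus sites with a range of at least 5 points, 11 were called higher and 1 lower. Over the whole table this comparison had 63 calls in the main fit, 28 after quantile normalization and 526 with the range filter. The logit scale, the block and the fit of 2 groups gave 0 there. For all metastases, 14, 19 and 20 sites were higher after quantile normalization, on the logit scale and with the block. Lower sites numbered 16 after quantile normalization, 16 with the range filter and 5 with the block. The 6 metastases as 1 group, added after the data were seen, gave 0 higher and 0 lower (87 at an unadjusted p under 0.05 by limma). This fit called 0 sites in the whole table.

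With 1 sample left out, TVI against MFP metastases gave 19 to 31 sites higher and 60 to 73 lower. TVI metastases against tumors gave 36 to 60 higher and 24 to 47 lower. Without any 1 metastasis, MFP metastases against tumors gave 0 to 1 higher and 0 lower, with 0 to 18 sites called in the whole table. At an unadjusted p under 0.05, limma gave 108 to 118 locus sites in those fits. All metastases against tumors gave 10 to 27 higher and 2 to 11 lower. In the fits without a tumor, the remaining one is assumed to vary like the other groups.

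The labels do not say whether equal replicate numbers mark paired samples. Deviations of equally numbered MFP and TVI metastases correlated at -0.0037, -0.0009 and 0.0085 across sites. Not every metastasis correlated best with its own number in the other group. Each tumor did, at 0.0172 and 0.0081 (replicate 1) and 0.0129 and 0.0077 (replicate 2) with MFP and TVI metastases. Deviations of only 2 tumors mirror each other and all values are small, so pairing cannot be decided from them. With the replicate block, the sites higher and lower numbered 29 and 73 in TVI against MFP metastases and 48 and 39 in TVI metastases against tumors, and the calls over tumors were lost for MFP metastases from 77646086 (7.90 points) and 77643298 (3.42 points) and for TVI metastases from 77643298 (2.28 points).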
